A study of Arabidopsis thaliana with 4 samples.

Results

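The regions described here are stretches of the Arabidopsis thaliana genome that carried trimethylation of histone H3 lysine 4 (H3K4me3) in leaf and carried more of it in callus. A region was a member when it lay on a nuclear chromosome, had been called in both tissues, and had at least 2 times as many H3K4me3 tags in callus as in leaf in the authors' deposited table. This held for 382 regions of the 18564 merged H3K4me3 regions, and of 38828 merged regions of both marks. Of the 16246 nuclear regions called in both tissues, 2.35% were members, and of all 18483 nuclear H3K4me3 regions, 7.35% were listed as higher in callus. They are called strengthened regions below, which names the rule and nothing more. They were chosen by their H3K4me3 tags and folds, which are given as a description.

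H3K4me3 is placed by methyltransferases of the Trithorax group and in plants sits mainly over the first part of transcribed genes. Acetylation of histone H3 (H3ac), placed by acetyltransferases and taken off by deacetylases, loosens the hold of nucleosomes on DNA and often lies in the same place. Callus is a dividing, unorganised tissue that grows from cut leaf on a medium rich in auxin with cytokinin. It is known to share many regulators with the root meristem.

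The study profiled chromatin of callus and of leaf, all from wild-type Col-0 plants, by chromatin immunoprecipitation sequencing. Callus came from leaf explants cut from seedlings aged 2 weeks and kept for 15 days on callus-inducing medium. The other tissue was the mature rosette leaf, labelled as untreated and as parental to the callus, and the only age the labels give for either tissue is that of the seedlings, 2 weeks. There was 1 library of H3K4me3 and 1 of H3ac from callus, and 1 of each from leaf, so no difference has a replicate check, no test between the tissues is reported, and tissue and time on the medium cannot be told apart. Both tissues are mixtures of cells, and in such bulk samples a mark on more cells cannot be told apart from more of the mark in each cell. Total depth is unknown. The spacing of the tag values gave the callus library 1.016 times the depth of the leaf library for H3K4me3 and 1.369 times for H3ac. The labelled tissues are described here by gene lists. The lists were edited after values were seen, so the counts are no check of the labels. Of 73 photosynthesis genes, 0 had H3K4me3 in callus alone, 56 had a region called in both tissues and 14 had it in leaf alone. Of 33 genes for callus and root stem cell factors, 9 had H3K4me3 in callus alone, 12 in both and 2 in leaf alone.

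The tag numbers that the rule used are given first, as a description. In the authors' deposited table a nucleosome-sized window, taken here as centred on the midpoint of the merged region, held a median of 181.45 tags in callus (lowest 79.3, highest 474.1), scaled to leaf depth, and a median of 67.5 tags in leaf (lowest 5, highest 221.5). Leaf tags numbered 10 or more in 381 of the 382, and no background level of the libraries is given in the files. Regions listed as higher in callus but called in callus alone were lower in both tissues, with medians of 92.1 tags in callus and 22.5 tags in leaf over 977 regions of the authors' deposited table. Membership required a leaf call, so this contrast, and that of the folds below, follows in part from the rule. Of those 977 regions, 43 (4.40%) reached the 51.5 leaf tags that bound the lower quartile of strengthened regions, and 13 strengthened regions (3.40%) had fewer leaf tags than the median of those 977.

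The folds lay close to the threshold. The median over the authors' deposited table was 2.47-fold for strengthened regions and 4.06-fold for listed regions called in callus alone. Of the 382, 201 (52.6%) had less than 2.5-fold, 76 had 2.5-fold to under 3-fold, 59 had 3-fold to under 4-fold, 35 had 4-fold to under 8-fold and 11 had 8-fold or more. Together 46 (12%) reached 4-fold, which is 0.283% of nuclear regions called in both tissues, against 493 (50.5%) of the listed regions called in callus alone. The ratios just inside the threshold were 2.002, 2.003 and 2.004, and regions just outside it carry no tag numbers in the files. Each fold has an exact 95% interval from both tag numbers, which covers counting error only. With a tag taken as 1 read, its lower bound lay above 2 in 153 regions, and the lowest bound was 1.38. Leaf tags came in steps of 0.5, and with 0.5 tags taken as 1 read these values were 194 and 1.55. Intervals below take a tag as 1 read. As the regions were chosen by fold, these bounds are no test of it.

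**Figure D1:**
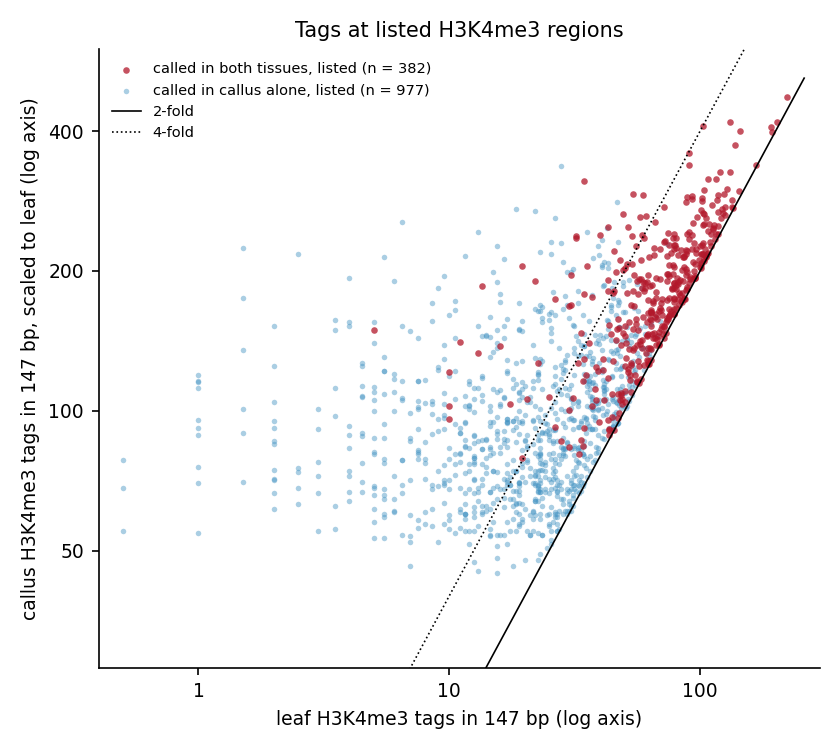
Scaled callus tags (vertical axis) against leaf tags (horizontal axis) in the window counted at each H3K4me3 region listed as higher in callus, both on log axes; each point is 1 region, red for the 382 called in both tissues and blue for the 977 called in callus alone, and the lines mark 2-fold and 4-fold. The red points lie at high leaf tag numbers and mostly between the lines, and the blue points spread to leaf values of 0.5 tags.

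Strengthened regions were longer than other regions called in both tissues, and the position in their name more often lay away from the midpoint. Their median length was 1237.5 bp, against 1055 bp for the 15864 nuclear regions called in both tissues and not listed. Their median score in the authors' region list was 258, against 483 for those not listed. The files do not give the callus and leaf boundaries apart. Each merged region has a position in its name, and in all 2237 nuclear regions from 1 library this position lay within 0.5 bp of the midpoint. In merged regions it could lie elsewhere. The median distance from the midpoint was 99.5 bp in strengthened regions and 13.5 bp in those not listed. It was over 73 bp, out of reach of the window counted at the midpoint, in 238 strengthened regions (62.3%) and in 1368 of those not listed (8.62%).

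If the named position is the mean of the midpoints of the merged calls, which the sources used here do not state, then 4 times this distance is the least by which the 2 calls differed in length. This least difference had a median of 420 bp in the 349 strengthened regions made of 1 callus and 1 leaf call, and of 52 bp in 15611 such regions not listed. It was never larger than the merged region allows. Which tissue had the longer call is not given by the distance. In 33 strengthened regions (8.64%) a single callus call spanned 2 leaf calls, against 84 (0.530%) of those not listed. The reverse, 2 callus calls in a single leaf call, occurred in 0 strengthened regions and in 167 (1.05%) of those not listed. The larger folds lay among the regions whose named position was far from the midpoint. Of the 46 with at least 4-fold in the authors' deposited table, 42 had the named position over 73 bp from the midpoint, and the 144 with a closer position had a median of 2.33-fold and a highest value of 5.91-fold. Some folds may thus compare a part of the gene that lay inside the callus call and outside the leaf call, and whether this was so at a given region could not be read from the files.

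**Figure D2:**
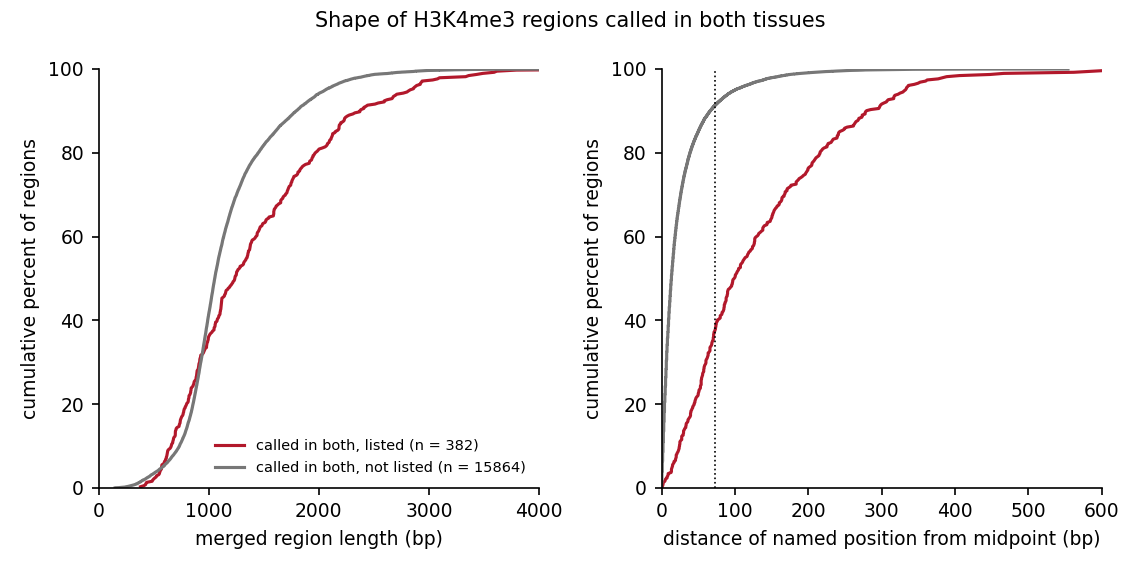
Cumulative percent of regions (vertical axes) by merged length in bp (left) and by distance of the named position from the midpoint in bp (right, dotted line at 73 bp), for the 382 strengthened regions in red and the 15864 regions called in both tissues and not listed in grey. The red curves lie to the right over most of the range, with median distances of 99.5 bp and 13.5 bp.

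Most strengthened regions lay in genes. The counted window overlapped a protein-coding gene in 365 of them (95.5%), lay within 500 bp of a gene end in 7 and was farther from any gene in 10. These gave 376 genes, or 2.36% of the 15948 genes with a region called in both tissues, and 192 of the 376 have a symbol. Strengthened regions reached farther into their genes than regions not listed did. They covered a median of 54.7% of the gene, against 40.7%, while the genes had like median lengths of 2520 bp and 2530 bp. The centre lay a median of 666 bp from the nearest gene end, against 490 bp. The gene table has no strand, so the start of a gene cannot be told from its end. By chromosome, members made up 1.64% (chromosome 4) to 2.60% (chromosome 3) of the regions called in both tissues, and 7 pairs were direct neighbours among H3K4me3 regions.

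The H3ac libraries took no part in the choice of the regions. An H3ac region listed as higher in callus overlapped 160 of the 382 strengthened regions (41.9%), against 286 of the 15864 regions not listed (1.80%), and 333 of the 977 listed regions called in callus alone (34.1%). An H3ac region of any kind overlapped 482 of those 977 (49.3%) and 333 of the 382 strengthened regions (87.2%). The 977 were also shorter, with a median length of 498 bp, and were not matched to the strengthened regions by length or score. Of all 20185 nuclear H3ac regions, 7.63% were listed as higher in callus. The share of strengthened regions with H3ac listed as higher was also above that in regions not listed of like score or length. Within the middle range of member scores (between their quartiles) it was 48.9% of 190 strengthened regions and 3.02% of 4928 not listed, and within the middle range of member lengths it was 47.4% of 190 and 1.38% of 10970. It was 39.6% in strengthened regions with the named position within 73 bp of the midpoint and 43.3% in the others. By H3K4me3 fold in the authors' deposited table it was 31.3% under 2.5-fold, 48.9% from 2.5-fold to under 4-fold and 67.4% at 4-fold or more. Whether both marks were taken from the same chromatin is not given in the sources used here, and the shares describe 4 libraries with no error over samples.

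Many strengthened regions had H3K4me3 called in both tissues and H3ac called in callus alone. An H3ac region called in callus alone, with none called in leaf, overlapped 129 of them (33.8%), against 2.88% of regions not listed. H3ac called in both tissues overlapped 201 (52.6%), against 89.3%. H3ac called in leaf alone overlapped 3 (0.785%), against 2.21%, and no H3ac region overlapped 49 (12.8%), against 5.6%. The 49 without a called H3ac region were shorter and weaker, with median lengths of 836 bp without and 1349 bp with an H3ac region. Median H3K4me3 folds were 2.27 and 2.5 in the authors' deposited table.

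**Figure D3:**
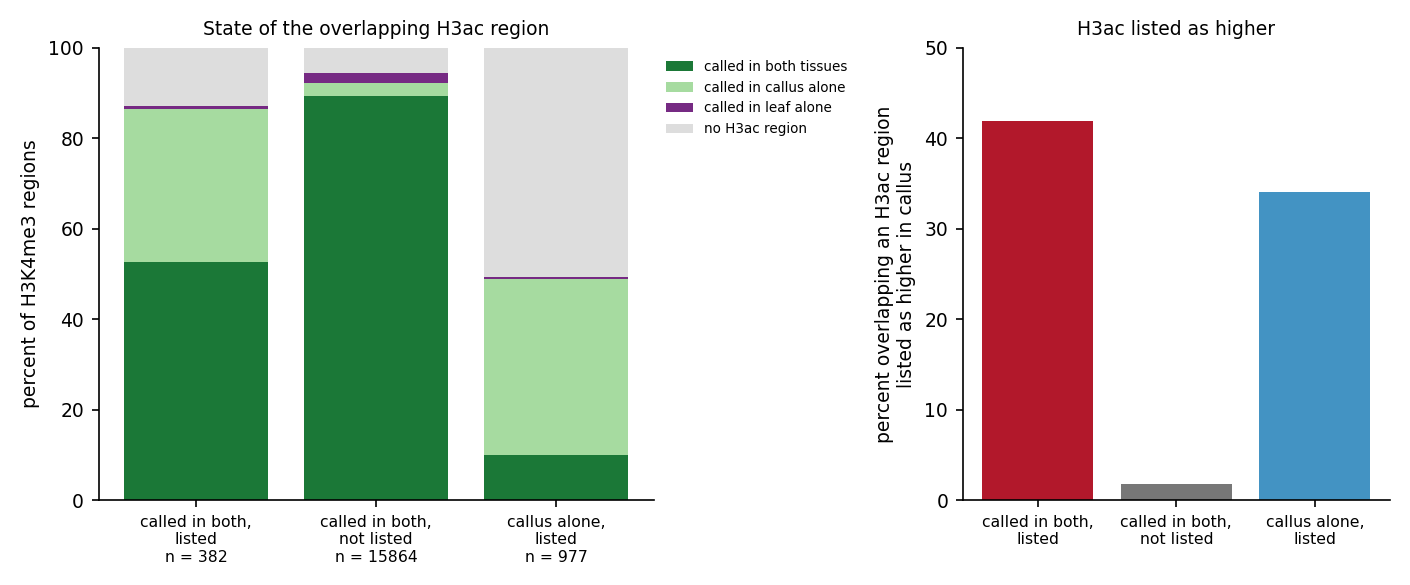
Left, percent of H3K4me3 regions (vertical axis) by the state of the H3ac region that overlaps them, for strengthened regions, regions called in both tissues and not listed, and listed regions called in callus alone. Right, percent that overlap an H3ac region listed as higher in callus, which was 41.9%, 1.80% and 34.1% in that order.

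At the 160 regions where both marks were listed, the H3ac tags in the authors' deposited table had medians of 51.65 in callus and 15.75 in leaf, and the median H3ac fold was 3.22. The H3ac region had been called in callus alone at 110 of them and in both tissues at 50. Conversely, 169 of the 1540 nuclear H3ac regions listed as higher (11%) overlapped a strengthened region. Among the 160 regions the sizes of the 2 folds went together only weakly. Both folds are 2 or more there by selection, which can lower a correlation. H3ac regions not listed have no tag numbers, so the relation over all strengthened regions was not measured. Spearman's rho was 0.11 and Pearson's r on the log2 scale 0.098 across the 160 regions, which share the same 4 libraries and are not replicates. The H3K4me3 fold was the higher of the pair in 69 of the 160. Where several listed H3ac regions overlapped a strengthened region, the one with the largest fold was used. That choice favours H3ac, and each fold came from the window of its own region, so the pair need not compare the same bases.

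**Figure D4:**
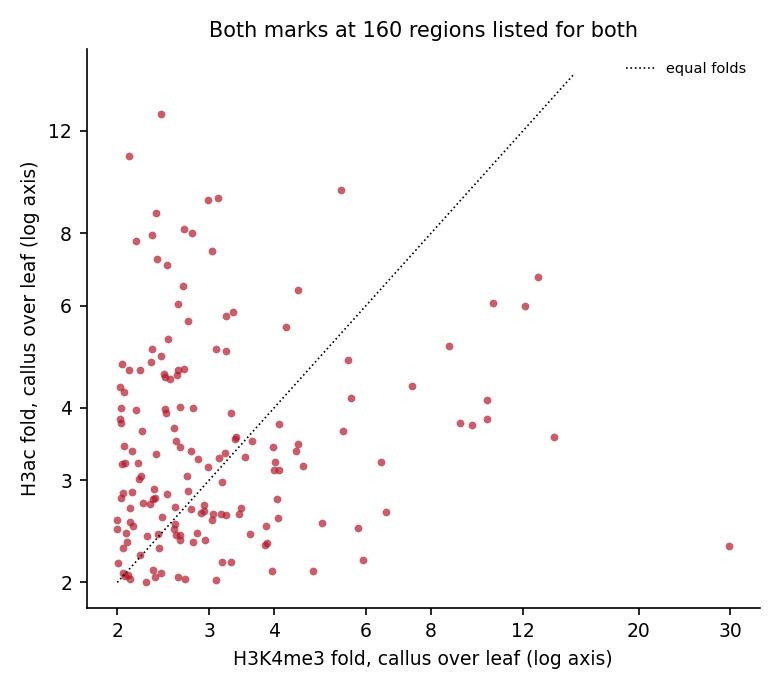
H3ac fold (vertical axis) against H3K4me3 fold (horizontal axis), callus over leaf, on log axes, at the 160 strengthened regions that overlap a listed H3ac region; each point is 1 region and the dotted line marks equal folds. The points form no line: rho was 0.11, and 69 of 160 had the larger fold for H3K4me3.

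Genes of the cell division machinery were among the members, and at most of those no H3ac region was called in either tissue. The gene lists were edited after values were seen, so shares and counts by list, here and below, are a description only. Their member shares stand beside 2.36% of all genes, and their listed H3ac counts beside 41.9% of all strengthened regions. Of 36 DNA replication and S phase genes with a region called in both tissues, 7 (19.4%) were members, against 2.36% of all genes, with a median fold of 2.23 against 2.47 over all members. MCM5, a subunit of the helicase that unwinds DNA at replication forks, had 125 scaled callus tags and 50 leaf tags in the authors' deposited table, 2.5-fold (95% interval 1.79 to 3.54). MCM2, of the same helicase, had 209.7 tags in callus and 104 in leaf, 2.02-fold (1.59 to 2.57) per the authors' deposited table. ORC3 and ORC6 belong to the complex that binds replication origins. ORC3 had 198.9 tags in callus and 88.5 in leaf, and ORC6 had 190.5 tags in callus and 85.5 in leaf, in the authors' deposited table. CDT1A, which helps load the helicase onto origins, had 250.1 tags in callus and 117.5 in leaf, 2.13-fold in the authors' deposited table. The other two were ETG1, a replication factor under E2F control, at 2.28-fold, and RNR1, the large subunit of the enzyme that makes deoxyribonucleotides, at 2.09-fold in the authors' deposited table. All 7 thus had 50 or more leaf tags and a small fold, from 2.02 to 2.5.

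Of 48 genes for mitosis, kinesins and cytokinesis, 5 (10.4%) were members, with a median fold of 2.44. AUR1, an Aurora kinase of dividing cells, had 145.2 tags in callus and 50 in leaf, 2.9-fold (2.09 to 4.07) per the authors' deposited table. AUR2, its close relative, had 152.1 tags in callus and 71.5 in leaf, 2.13-fold (1.58 to 2.83) per the authors' deposited table. The 2 Aurora genes have similar sequences, and reads could be shared between them depending on how they were aligned. PLE, a microtubule bundling protein of the dividing cell's new wall, had 2.69-fold, MAD2 of the spindle checkpoint 2.44-fold and POK2, a kinesin that guides the plane of division, 2.3-fold in the authors' deposited table. Of 55 cyclin and cell cycle kinase genes, 4 (7.27%) were members, with a median fold of 2.97. CYCA2;4 had 211.2 tags in callus and 48 in leaf, 4.4-fold (3.21 to 6.16), and CYCA1;1 had 129.5 tags in callus and 34.5 in leaf, 3.75-fold (2.61 to 5.75), per the authors' deposited table. CYCB2;2 and the mitotic kinase gene CDKB2;1 had 2.19-fold and 2.1-fold in the authors' deposited table. Regions listed as higher but called in callus alone were given to 9 of all 74 cyclin and kinase genes, 3 of 44 replication genes and 3 of 54 mitosis genes. None of these was a member gene. Over all 27444 genes such a region was given to 899.

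No H3ac region overlapped the member regions of 12 of these 16 cell division genes (75%), against 36 of the 360 other member genes (10.0%). The 12 were MCM5, MCM2, ORC3, ORC6, ETG1, RNR1, AUR1, AUR2, MAD2, POK2, CYCA1;1 and CDKB2;1. Of 123 division genes called in both tissues that were not members, 35 (28.5%) had no H3ac region called. Among the 15449 other genes called in both tissues and not members, 767 (4.96%) had none. H3ac tag numbers are given only at listed H3ac regions, so a low level could not be told from none. The other 4 member genes had H3ac called in callus alone, and for 3 of them it was listed as higher. CDT1A had 43.8 H3ac tags in callus and 13 in leaf, 3.37-fold (1.83 to 6.69), and PLE had 30.3 H3ac tags in callus and 6.5 in leaf, 4.66-fold (2.11 to 14.4), per the authors' deposited table. CYCA2;4 had 30.3 H3ac tags in callus and 9 in leaf, 3.37-fold (1.59 to 7.79) per the authors' deposited table.

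Auxin genes among the members included carriers that move the hormone, enzymes that bind it to amino acids and response factors. Of 96 auxin genes with a region called in both tissues, 12 (12.5%) were members, with a median fold of 2.60. EIR1, the root auxin efflux carrier also known as PIN2, had 96 tags in callus and 10 in leaf, 9.6-fold (5.03 to 20.7) per the authors' deposited table. Its H3ac was called in callus alone, with 50.4 tags in callus and 13.5 in leaf, 3.73-fold (2.01 to 6.93) per the authors' deposited table. EIR1 rested on low leaf counts, and its region at chromosome 5, 23100843 to 23102388 (TAIR10), had its named position 273.5 bp from the midpoint. LAX2, an uptake carrier, had 106.3 tags in callus and 20.5 in leaf, 5.19-fold (3.28 to 9.05) per the authors' deposited table, with no listed H3ac. The transporter gene ABCB19 had 210.7 tags in callus and 58 in leaf, 3.63-fold (2.71 to 4.94) per the authors' deposited table. WAG2, a kinase that acts on auxin carriers, had 2.6-fold for H3K4me3 and 4.56-fold for H3ac in the authors' deposited table. WES1 and GH3.17, enzymes that join auxin to amino acids, had 2.72-fold and 2.48-fold, and the repressor gene IAA1 had 2.59-fold in the authors' deposited table. ARF19, an auxin response factor, had 227.4 tags in callus and 101.5 in leaf, 2.24-fold (1.76 to 2.84) per the authors' deposited table. A listed H3ac region overlapped 5 of the 12, near the 41.9% of all strengthened regions.

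The cytokinin list had 4 members among 33 genes (12.1%), with a median fold of 4.21. WOL, a cytokinin receptor, had 175.7 tags in callus and 37 in leaf, 4.75-fold (3.31 to 6.95), and H3ac of 43.8 tags in callus and 21 in leaf, 2.09-fold (1.25 to 3.61), per the authors' deposited table. HK5 is a histidine kinase that the list took in by name and that is not known as a cytokinin receptor. It had 191 tags in callus and 43 in leaf, 4.44-fold (3.18 to 6.33), per the authors' deposited table. CKX5, which breaks cytokinin down, had 3.97-fold, and ARR6, a response regulator that damps the signal, 2.27-fold in the authors' deposited table. ARR6 had no H3ac region in either tissue.

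Root and shoot stem cell regulators had 2.24-fold to 4.44-fold in the authors' deposited table, with 50 to 101.5 leaf tags. Of 12 callus and root stem cell genes with a region called in both tissues, 4 (33.3%) were members, with a median fold of 2.5. AIL7, an AINTEGUMENTA-like factor of meristems, had 205.8 tags in callus and 75.5 in leaf, 2.73-fold (2.07 to 3.57) per the authors' deposited table. AIL6, of the same family, had 234.8 tags in callus and 90 in leaf, 2.61-fold (2.03 to 3.36), per the authors' deposited table, and its single callus region spanned 2 leaf regions. For AIL6 the H3ac fold, counted in the window of the H3ac region, was the larger. It came from 78.5 tags in callus and 13 in leaf, 6.04-fold (3.37 to 11.7) per the authors' deposited table. SHR, which sets root radial pattern, had 193.5 tags in callus and 81 in leaf, 2.39-fold (1.84 to 3.14) per the authors' deposited table. ARF19 is on this list too. A further 8 of all 33 genes of the list had a listed region called in callus alone and none that was a member. Over all 27444 genes, 899 had a listed region called in callus alone.

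Of 54 shoot stem cell, boundary and leaf shape genes, 4 (7.41%) were members, with a median fold of 3.05. KNAT6, a KNOX homeobox factor of the shoot meristem and organ boundaries, had 237.3 tags in callus and 53.5 in leaf, 4.44-fold (3.26 to 6.02), and H3ac of 58.8 tags in callus and 17 in leaf in the authors' deposited table. HB-8 and PHB, class III homeodomain factors of vascular tissue and of the upper leaf side, had 3.05-fold and 3.04-fold in the authors' deposited table. HB53, another homeodomain-leucine zipper factor, had 2.44-fold in the authors' deposited table. H3ac was listed as higher at KNAT6 and PHB and not at HB-8 and HB53.

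Ribosome assembly genes were members in 4 of 53 (7.55%), with a median fold of 3.28. FIB2 and FIB1 encode fibrillarin, which methylates ribosomal RNA in the nucleolus. FIB2 had 196.4 tags in callus and 54.5 in leaf, 3.6-fold (2.67 to 5), and FIB1 had 235.8 tags in callus and 80 in leaf, 2.95-fold (2.27 to 3.84), per the authors' deposited table. These near-identical genes could share reads, and their values are uncertain to that extent. NUC-L1, a nucleolin, had 263.4 tags in callus and 126 in leaf, 2.09-fold (1.69 to 2.61) per the authors' deposited table. PFL, a gene for ribosomal protein S18, had the lowest callus tags of all members, 79.3 in callus and 19.5 in leaf, 4.06-fold (2.42 to 6.87) per the authors' deposited table. Its region merged a single callus call with 2 leaf calls.

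Cell wall genes were members in 13 of 170 (7.65%), with a median fold of 2.49. Of the 13, 6 had a listed H3ac region, near the 41.9% of all strengthened regions. AGP31, an arabinogalactan protein, had 181.2 tags in callus and 43 in leaf, 4.21-fold (3.01 to 6.02), and H3ac of 46.7 tags in callus and 8.5 in leaf, 5.5-fold (2.79 to 14.1), per the authors' deposited table. EXPA4, an expansin that loosens walls, had 216.1 tags in callus and 65.5 in leaf, 3.3-fold (2.47 to 4.37) per the authors' deposited table. AGP31 and EXPA4 kept the named position within 48 bp of the midpoint. GH9B13 and GH9C2 of the endoglucanase family had 3.16-fold and 2.84-fold, and COBL1, related to the cellulose orienting protein COBRA, 2.7-fold in the authors' deposited table. The TRICHOME BIREFRINGENCE-LIKE genes TBL39, TBL1 and TBL8, whose family adds acetyl groups to wall polymers, had between 2.48-fold and 2.66-fold in the authors' deposited table. TBL1 had 53 H3ac tags in callus and 7.5 in leaf, 7.06-fold (3.21 to 16.0) per the authors' deposited table.

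**Figure D5:**
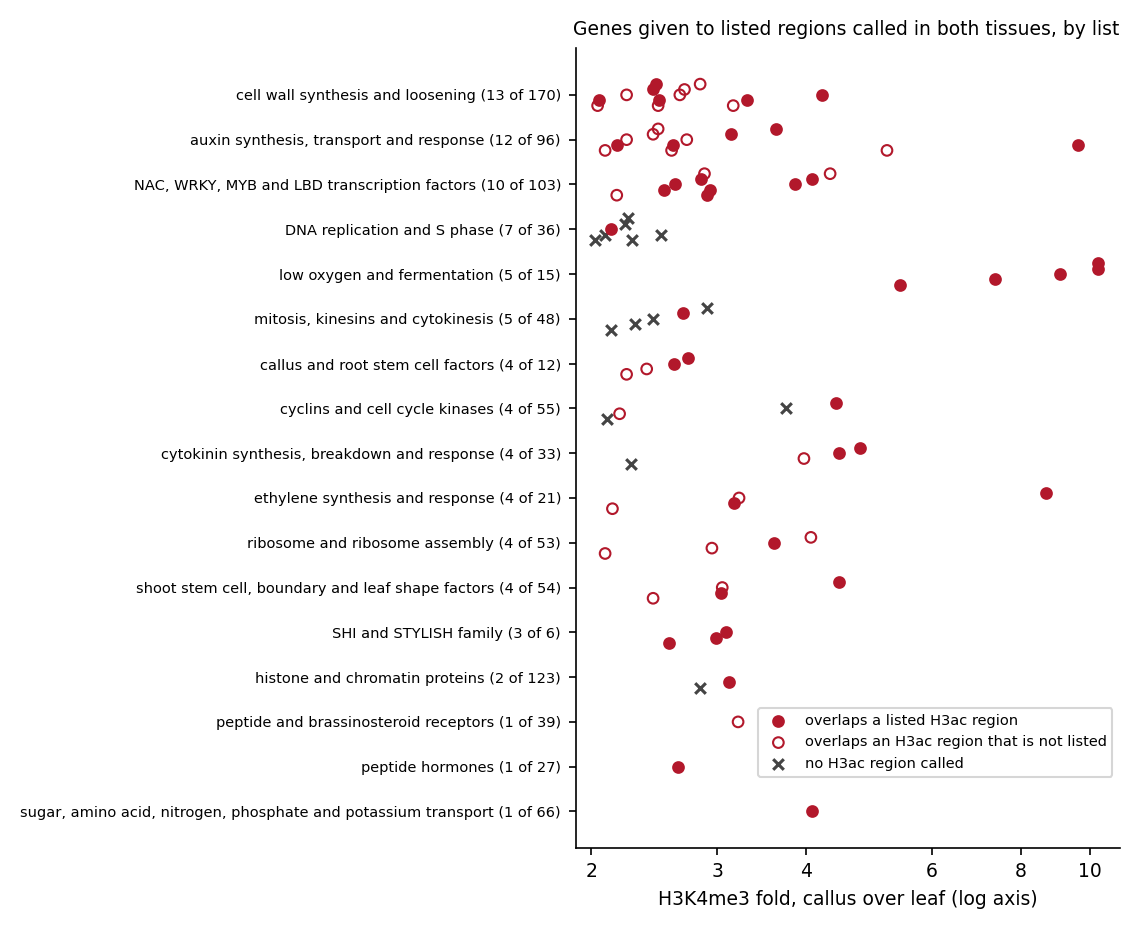
H3K4me3 fold of callus over leaf (horizontal log axis) for each gene given to a strengthened region, by gene list (rows, with the number of member genes of all list genes that had a region called in both tissues); filled points overlap a listed H3ac region, open points an H3ac region that is not listed, and crosses no H3ac region. The crosses gather in the DNA replication and mitosis rows (6 of 7 and 4 of 5), and the 5 low oxygen genes lie between 5.42-fold and 10.26-fold.

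Other lists were near the share of all genes or below it. Histone and chromatin genes were members in 2 of 123 (1.63%). HTA8, a gene for the histone variant H2A.Z, had 188.5 tags in callus and 60.5 in leaf, 3.12-fold (2.33 to 4.26) per the authors' deposited table. Its H3ac rested on 23 tags in callus and 2.5 in leaf, 9.2-fold (2.88 to 97.6) per the authors' deposited table. CHR38, a chromatin remodeller of the RNA-directed DNA methylation pathway, had 2.84-fold in the authors' deposited table and no H3ac region. The list of peptide and brassinosteroid receptors gave 1 member in 39 (2.56%), with 3.21-fold in the authors' deposited table. This was BRX, a regulator of root vascular growth that is itself no receptor. The list went by gene name, so it does not count receptor genes under other names, and such genes may be members. Nutrient transporter genes gave 1 in 66 (1.52%), PHT2;1, a phosphate carrier of chloroplasts, with 4.07-fold in the authors' deposited table. Peptide hormone genes gave 1 in 27 (3.70%). This was PSK5, a phytosulfokine precursor gene, with 222 tags in callus and 84 in leaf, 2.64-fold (2.04 to 3.43), and H3ac of 37.6 tags in callus and 11 in leaf, 3.42-fold (1.74 to 7.21), per the authors' deposited table. A listed region called in callus alone was given to 12 of all 125 peptide hormone genes, and to 899 of all 27444 genes. Photosynthesis genes gave 0 members in 56.

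The 10 largest folds among genes with at least the median callus tags and an entry in the symbol field of the gene table are given next. PCO1 and PCO2, with larger folds than most of these, have their names there as synonyms only and are described with the low oxygen genes. MSL4, a mechanosensitive ion channel gene, had 185.6 tags in callus and 13.5 in leaf, 13.75-fold (7.73 to 24.8) per the authors' deposited table, at chromosome 1, 19958414 to 19960513 (TAIR10). The window lay in the gene, the named position was 307.5 bp from the midpoint, and its H3ac was called in callus alone at 57 tags in callus and 16 in leaf. MIF1, a mini zinc finger protein, had 195.9 tags in callus and 30.5 in leaf, 6.42-fold (4.43 to 9.94) per the authors' deposited table. BAS1, a cytochrome P450 that inactivates brassinosteroids, had 238.8 tags in callus and 40 in leaf, 5.97-fold (4.27 to 8.58) per the authors' deposited table, although its H3ac region was called in leaf alone. PES1, a chloroplast phytyl ester synthase, had 5.78-fold, and ASE1, the entry enzyme of purine synthesis, 5.37-fold in the authors' deposited table. ASE1 also had one of the largest H3ac folds, with 47.5 tags in callus and 5 in leaf, 9.5-fold (3.87 to 30.2) per the authors' deposited table. The kinase gene SNRK2.5 had 4.86-fold, the aspartate aminotransferase gene ASP2 4.82-fold and ESC, an AT-hook DNA-binding protein, 4.54-fold in the authors' deposited table. ACO1 and SUS1, described with the ethylene and low oxygen genes, complete the 10. In all 10 the named position lay more than 73 bp from the midpoint.

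The highest fold of all belonged to a gene without a symbol, AT3G53190, singled out after its values were seen. It had 149.2 tags in callus and 5 in leaf, 29.83-fold (12.5 to 93.5) per the authors' deposited table, at chromosome 3, 19714002 to 19716803 (TAIR10), with the named position 466.5 bp from the midpoint. Its H3ac fold was 2.31, from 28.9 tags in callus and 12.5 in leaf in the authors' deposited table. The gap between the 2 folds, each from the window of its own region, was thus wide at this gene.

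Some large H3ac folds occurred where the H3K4me3 fold was small, while at ASE1 both were large (9.5-fold and 5.37-fold) in the authors' deposited table. By H3K4me3 fold, the median listed H3ac fold was 3.01 under 2.5-fold, 3.145 from 2.5-fold to under 4-fold and 3.65 at 4-fold or more. OFP7, of the OVATE family of growth regulators, had 57.7 H3ac tags in callus and 4.5 in leaf, 12.82-fold (5.42 to 54.3), and H3K4me3 of 229.4 tags in callus and 94.5 in leaf, 2.43-fold (1.91 to 3.13), per the authors' deposited table. GIK, an AT-hook protein of flower development, had 7.23-fold for H3ac and 2.38-fold for H3K4me3 in the authors' deposited table. At OFP7 and GIK, H3K4me3 had been called in both tissues and H3ac in callus alone.

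The 5 genes with a symbol and the most callus tags had 2.13-fold to 4.01-fold in the authors' deposited table. EBF2, an F-box protein that turns over the ethylene factor EIN3, had the most tags of all members, 474.1 in callus and 221.5 in leaf, 2.14-fold (1.82 to 2.52) per the authors' deposited table. ETR2, an ethylene receptor, had 417.5 tags in callus and 131.5 in leaf, 3.17-fold (2.60 to 3.87), and ORS1, a regulator of organ size, had 411.1 tags in callus and 102.5 in leaf, 4.01-fold (3.24 to 5.06), per the authors' deposited table. Mik, a myo-inositol kinase, and NRAMP3, a metal carrier, had 2.13-fold and 2.78-fold in the authors' deposited table. The smallest folds among genes with a symbol were those of UBP27 (2-fold, 1.38 to 2.90), GMI1 (2.01-fold, 1.56 to 2.65) and TRA2 (2.02-fold, 1.63 to 2.48) per the authors' deposited table.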

How the data were processed

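ChIP DNA from callus and leaf was sequenced, with a single library for each tissue and mark. Per the submitters' processing notes, the build was TAIR10 and the tools were HOMER 4.10.4, Bowtie2 2.3.4.3 and SAMtools 1.11, with no roles given. Per the file headers, HOMER's merging tool joined the regions of both tissues. The authors deposited with each region a score and a count of the regions merged into it. Per the file headers, the authors then kept regions of at least 2-fold and a Poisson p of at most 0.01 with HOMER's differential peak tool. The tag signal the authors deposited is that of 147 bp, taken here as centred on the region's midpoint since the headers give the size only, and the deposited fold is the ratio of callus tags, scaled to leaf, to leaf tags. Only regions higher in callus have tags. No input library entered.

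Here, each fold was given an exact 95% interval of the Clopper-Pearson form, conditional on the sum of the tags, with callus put back to its own scale and a tag taken as 1 read. Interval coverage was checked only on simulated independent Poisson counts with set folds. Those counts follow the model of the interval and, unlike the members, were not selected by fold. PCR copies are not independent, so intervals cover counting error only. The members were chosen by fold, which can bias folds and bounds upwards. Regions overlapped when they shared 1 bp. A region was given to each nuclear protein-coding gene (27444 in the RefSeq table of TAIR10.1) that its 147 bp overlapped, or, failing that, to the closest gene with an end at most 500 bp away. Coordinates are those of the authors' files. Python 3.11.15, pandas 2.3.3 and scipy 1.17.1 were used.

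The members and gene lists were chosen with earlier results of these data known, the lists were edited after values were seen, and 4 of them (low oxygen, ethylene, SHI and STYLISH, and NAC, WRKY, MYB and LBD) were added then. Symbols that several loci carry were dropped from the lists, and genes without a symbol entry entered by synonym. Named genes are up to 8 per list by fold, the 10 with a symbol entry and the largest fold at or above the median callus tags, the 8 with the largest H3ac fold, the 5 with the most callus tags and the 3 with the smallest fold. ARF19 comes under 2 lists and is named in both. No sequence is shown, and 1 gene that the rule names is not reported here.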

Additional observations from a re-analysis of the deposited data

How the results depend on the processing

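Of 382 strengthened regions, 46 reached 4-fold, and 144 had the named position within 73 bp of the midpoint, a restriction added after the data were seen. The median fold of 2.47 was 2.33 in those 144. The median length of 1238 bp was 1739 bp at 4-fold or more and 812.5 bp with the close position. The share with H3ac listed as higher, 41.88%, was 67.39% among members of 4-fold or more and 12.3% when the H3ac region had to reach 4-fold, where regions not listed gave 0.139%. The share with any H3ac region, 87.17%, was 95.65% at 4-fold or more and 83.33% with the close position. Under the planned 4-fold limit the list counts were 1 for cyclins, cell wall, ribosome, shoot and ethylene genes, 2 for auxin, cytokinin and NAC, WRKY, MYB and LBD genes, and 0 for DNA replication, mitosis, root stem cell, peptide hormone, receptor, chromatin and SHI genes. With the close position they were 0 for cyclin, receptor, transport, low oxygen and SHI genes, 1 for mitosis, cytokinin, root stem cell, shoot, chromatin, ribosome and ethylene genes, 2 for DNA replication, 3 for auxin and for NAC, WRKY, MYB and LBD genes, and 6 for cell wall genes. The other 38 comparisons stayed within 1.5 times for counts and within the 95% interval of the reported value for shares and medians. The regions share the same libraries and are not replicates, so that interval only sorts the comparisons and gives no error over samples. Among them, the share with listed H3ac was 36.91% when the H3ac region had to overlap the counted window, and 415 genes in place of 376 were given to members by overlap of the whole region. The cause of these shifts was not tested beyond the fewer regions each limit leaves. The motif search and its alternative were not run, since no sequence was at hand. No paired analysis was possible because each tissue has 1 library per mark. Leaving out a library was not possible for the same reason. Without an input library, uneven recovery of DNA could not be measured, and total depth is unknown.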

Other observations

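The gene groups in this section were added after their values were seen, and the other lists were edited then. The counts of all lists thus describe them and support nothing. Over all genes with a region called in both tissues 2.36% were members, and listed H3ac overlapped 41.9% of all strengthened regions. Genes of the low oxygen response stood at the upper end of the folds. Of 15 such genes with a region called in both tissues, 5 (33.3%) were members, with a median of 9.08-fold against 2.47-fold over all members of the authors' deposited table. PDC1 and ADH1 are the enzymes of ethanol fermentation. PDC1 had 133.4 tags in callus and 13 in leaf, 10.26-fold (95% interval 5.78 to 19.7), and ADH1 had 102.4 tags in callus and 10 in leaf, 10.24-fold (5.35 to 22.0), per the authors' deposited table. PCO1 and PCO2 are oxygenases that mark response factors for breakdown when oxygen is present. PCO1 had 313.1 tags in callus and 34.5 in leaf, 9.08-fold (6.45 to 13.5), and PCO2 had 235.3 tags in callus and 32 in leaf, 7.35-fold (5.07 to 11), per the authors' deposited table. SUS1, which splits sucrose, had 292.4 tags in callus and 54 in leaf, 5.42-fold (4.04 to 7.38) per the authors' deposited table. H3ac was listed as higher at all 5, with 3.65-fold to 4.36-fold in the authors' deposited table. At all 5 the named position lay 200.5 to 588.5 bp from the midpoint of the merged region, over the 73 bp that the counted window reaches. A further 4 of all 21 genes of the list had a listed region called in callus alone, against 899 of all 27444 genes.

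Of 21 ethylene genes, 4 (19.0%) were members. ACO1, of the enzyme family that makes ethylene, had 190.5 tags in callus and 22 in leaf, 8.66-fold (5.54 to 14.1), and H3ac of 43.5 tags in callus and 8.5 in leaf, 5.11-fold (2.61 to 13.3), per the authors' deposited table. The response factor gene EDF3 had 3.22-fold in the authors' deposited table, and ETR2 and EBF2 were described above. Of 6 genes of the SHI and STYLISH family of growth regulators, 3 (50%) were members, against 2.36% of all genes. All 3 had listed H3ac, against 41.9% of all strengthened regions. LRP1 had 285.5 tags in callus and 92.5 in leaf, 3.09-fold (2.45 to 3.97), and STY1 had 122.6 tags in callus and 41 in leaf, 2.99-fold (2.09 to 4.38), per the authors' deposited table. SHI had 2.57-fold in the authors' deposited table. STY1 had 45.7 H3ac tags in callus and 5 in leaf, 9.13-fold (3.74 to 29.3) per the authors' deposited table.

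Of 103 NAC, WRKY, MYB and LBD transcription factor genes, 10 (9.71%) were members, against 2.36% of all genes. Listed H3ac overlapped 7 of the 10, against 41.9% of all strengthened regions. MYB2 (4.32-fold), WRKY23 (4.08-fold) and NAC047 (3.86-fold) led the list in the authors' deposited table, followed by MYB56, LBD4, NAC019, WRKY6 and NAC080 with 2.62-fold to 2.93-fold. The count leaves out NAC3 (AT3G29035), a member with 4.05-fold in the authors' deposited table, since symbols that more than 1 locus carries were dropped from the lists. A listed region called in callus alone was given to 22 others of all 297 genes of this list, against 899 of all 27444 genes.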
